A study of Homo sapiens with 46 samples.

Results

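Ribosomal protein pseudogenes are copies of the messages that encode the proteins of the ribosome, and this account follows them through 4 subcellular fractions of 4 human cell types. They were taken by name: a gene symbol of a ribosomal protein followed by P and a number, with the true ribosomal stalk genes RPLP0, RPLP1 and RPLP2 set aside. The name rule found 144 genes. Of these, RPS19BP1 is a protein-coding gene (a binding partner of RPS19) and was set aside as well, which left 143 pseudogenes of 53 parent genes among the 21166 genes of the 4 transcript tables.

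The starting cells were H1, a long-established line of human pluripotent stem cells (hPSC) grown on Matrigel in mTeSR1 medium, and ectoderm, endoderm and mesoderm made from it in culture and collected after 5 days. Endoderm was made in RPMI with WNT3A and Activin A, mesoderm in DMEM/F12 with VEGF, BMP4 and bFGF plus Activin A on the first day only, and ectoderm in DMEM/F12 with serum replacement, A83-01, PNU-74654 and Dorsomorphin. From each, RNA was sequenced from cytoplasm, from whole nuclei, and from the soluble (nucleoplasm) and pelleted (chromatin) parts of lysed nuclei, in buffers that held the transcription inhibitor α-amanitin. There were 46 libraries in 16 groups, 3 per group except mesoderm nucleoplasm with 1. All came from 1 cell line, the labels do not say whether replicates were separate cultures, and p-values therefore measure the spread between these libraries, which may be technical.

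A processed pseudogene arises when a messenger RNA is copied back into DNA and inserted elsewhere in the genome, so it lacks introns and usually a promoter of its own. Ribosomal protein messages are among the most abundant in any cell, and they have left more such copies in the human genome than almost any other family. A young copy is nearly identical to its parent, so a short read from the parent can be assigned to the pseudogene and the reverse. A copy inside an intron can also be read as part of the host gene's unspliced transcript.

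The copies were nearly all intronless. Of the 143, 141 were matched by gene ID to GENCODE 29: 122 were annotated as processed pseudogenes, 18 as transcribed processed pseudogenes and 1 as a transcribed unprocessed pseudogene. RPSAP58 and one of the 2 gene IDs that carry the symbol RPL23AP7 (ENSG00000291064, the one listed in all 4 tables and meant below) were not matched. The laminin receptor gene RPSA had the most copies in the tables with 12, followed by RPL23A with 11, RPS3A with 9 and RPL21 with 8. Identity to the parent message ran from 79.9% to 100%, with a median of 93%. It was 95% or more for 50 of the 141, and 78 shared at least 1 stretch of 50 bases with a parent transcript. An intron of another gene on the same strand held 54 of them, an intron on the opposite strand 26, and exons of another gene 20 (13 on the same strand and 7 on the opposite). The other 41 overlapped no other gene.

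The sequences of 3 of the copies described below are shown because they equal the parent's over the whole coding region. They are printed from GENCODE 29 transcripts (GRCh38) from the start codon, 5′ to 3′ in the sense of the parent message and without the stop codon. RPS28P7 lies at chr11:82689559-82689765 (plus strand) in an intron of the long noncoding RNA gene MIR4300HG, which runs on the opposite strand. RPL41P5 lies at chr12:93083601-93083675 (minus strand) and RPL39P3 at chr6:73373111-73373263 (minus strand), in an intron of OOEP. Each matched its parent with 0 differences, so no letter is in capitals, and a short read that falls inside them cannot be told from a read of the parent.

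RPS28P7: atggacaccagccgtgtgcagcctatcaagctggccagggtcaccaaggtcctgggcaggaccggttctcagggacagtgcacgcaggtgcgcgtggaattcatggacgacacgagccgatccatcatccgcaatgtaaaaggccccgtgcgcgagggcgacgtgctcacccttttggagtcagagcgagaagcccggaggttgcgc
RPL41P5: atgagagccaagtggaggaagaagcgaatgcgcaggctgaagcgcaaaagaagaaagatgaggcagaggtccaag
RPL39P3: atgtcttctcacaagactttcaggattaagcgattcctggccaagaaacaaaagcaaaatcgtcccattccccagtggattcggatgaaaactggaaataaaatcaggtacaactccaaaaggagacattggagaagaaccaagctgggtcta

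Other copies differed from the parent at a few bases or at many. For each, the ungapped window of 90 coding bases with the most differences is shown, so it does not measure identity over the whole copy. The bases that differ between copy and parent are in capitals. RPL23AP42 (chr3:161429221-161429310, minus strand, opposite to exons of a long noncoding RNA) and RPS23P8 (chrX:70963045-70963134, plus strand, no other gene) each held 2 such bases in the window. RPS15AP30 (chr10:112987687-112987776, plus strand, in a TCF7L2 intron) held 23. They are shown as copies with few and with many differing bases.

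RPL23AP42: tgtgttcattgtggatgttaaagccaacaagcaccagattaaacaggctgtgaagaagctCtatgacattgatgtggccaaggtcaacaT
RPL23A: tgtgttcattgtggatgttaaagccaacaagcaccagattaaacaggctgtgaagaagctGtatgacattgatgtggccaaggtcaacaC
RPS23P8: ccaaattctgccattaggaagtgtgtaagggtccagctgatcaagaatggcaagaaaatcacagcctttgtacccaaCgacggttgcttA
RPS23: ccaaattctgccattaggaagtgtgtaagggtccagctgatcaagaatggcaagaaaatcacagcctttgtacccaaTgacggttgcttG
RPS15AP30: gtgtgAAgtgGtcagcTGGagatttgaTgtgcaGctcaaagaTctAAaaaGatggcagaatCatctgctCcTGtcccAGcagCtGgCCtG
RPS15A: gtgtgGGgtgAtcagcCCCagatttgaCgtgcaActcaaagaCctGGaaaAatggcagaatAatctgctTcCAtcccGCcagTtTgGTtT

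Each cell type has its own transcript assembly, and the pseudogenes listed differed between them, with 51 listed for hPSC, 102 for ectoderm, 53 for endoderm and 62 for mesoderm. Of the 143, 25 were in all 4 tables, 13 in 3, 24 in 2 and 81 in only 1 (43 of these in ectoderm, 15 in endoderm, 15 in mesoderm and 8 in hPSC). A pseudogene without an entry in a table has no value there, which is not a count of 0. Library totals ran from 4990408 to 21298678 counts. Levels below are in CPM, a gene's count scaled to the library's total count on genes. CPM is not corrected for length, so levels of different genes are compared on it only as shares of counts. These are shares of a parent or of the ribosomal protein genes, and they also reflect length.

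The entries also differed in kind. The transcript length implied by the ratio of count to TPM (the authors' length-corrected share) split 258 of the 268 pseudogene entries of the 4 tables into 187 short ones, with a median of 542 bases, and 71 long ones of over 3000 bases, with a median of 6435 and a maximum of 23793. For 10 entries no length could be estimated. The copies themselves are short, so a long entry is a transcript that extends well beyond the copy. This split was made after the values were seen, and no test rests on it. Median identity to the parent was 98.5% to 99% by table for short entries and 90% to 91.1% for long ones. Identity reached 95% for 29 of 42 aligned short entries of the hPSC table, and for 34 of 52, 27 of 42 and 30 of 43 of the ectoderm, endoderm and mesoderm tables. A protein-coding gene held 31 of the 42 long entries in ectoderm, 14 of 16 in mesoderm, 5 of 7 in hPSC and 4 of 6 in endoderm. The longest was RPS15AP30, whose implied length was 23793 bases in ectoderm and 7800 to 10660 in the other 3 tables.

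Fraction labels and cell types were checked with known genes, and some went against them. The nuclear RNA MALAT1 was higher in the cytoplasm than in the nucleus of hPSC (log2 change 1.45) and ectoderm (3.09) by edgeR's quasi-likelihood test, and NEAT1 likewise (1.36 and 2.59). In ectoderm the nuclear RNAs MEG3 (0.59), KCNQ1OT1 (1.21) and SNHG14 (0.92) were also higher in cytoplasm. The cytoplasmic messages ACTB (-0.48), RPLP0 (-0.69) and TUBA1B (-0.51) were lower there, and GAPDH and EEF1A1 were not called. In hPSC these messages were all higher in cytoplasm (0.89 to 1.56), as in mesoderm (0.69 to 3.20). In endoderm GAPDH (0.91), EEF1A1 (1.48) and RPLP0 (0.79) were higher, and ACTB (0.18) and TUBA1B (0.23) were not called. Of the nuclear RNAs there, SNHG14 was higher in cytoplasm (0.68), MEG3 (-1.86) and KCNQ1OT1 (-1.70) were lower, and MALAT1 (-0.63) was not called. The mitochondrial messages MT-ND1, MT-CO1 and MT-CYB were lower in the cytoplasm of hPSC, ectoderm and endoderm, by -3.04 to -6.19 on the log2 scale, and higher in that of mesoderm (2.45 to 2.85). Cell type markers were highest in their own cell type for 5 of 6 hPSC, 4 of 6 ectoderm, 6 of 6 endoderm and 1 of 7 mesoderm genes. In mesoderm HAND1 (132 CPM) led, while TBXT averaged 0.132 CPM and MESP1, MIXL1 and KDR had no entry. Genes listed as markers of other cells were also present there, COL1A1 at 216 CPM and GATA3 at 123 CPM. GATA3 and COL1A1 were not confined to mesoderm: GATA3 averaged 134 CPM in endoderm, and COL1A1 76.6 to 110 CPM in the other cell types. COL3A1, from the same list, averaged 33 CPM in mesoderm and 0 in hPSC, with no entry in ectoderm or endoderm. KRT7 averaged 27.4 CPM in mesoderm and 27.3 in hPSC, and CDX2 0.552 in mesoderm and 6.96 in endoderm. HAND1 averaged 58.1 CPM in endoderm. The hPSC marker POU5F1 averaged 2954 CPM in hPSC, 1765 in endoderm, 892 in mesoderm and 6.22 in ectoderm. The part of these features in the results below was not tested.

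Summed over all pseudogenes of a table, the family's group means ran from 0.685% (cytoplasm) to 0.928% (nucleus) of the counts of the 82 ribosomal protein genes in hPSC. The range was 1.4% to 1.91% for ectoderm libraries, 1.13% to 1.57% for endoderm libraries and 0.927% to 1.35% for mesoderm libraries, each time with chromatin highest. In each cell type the lowest mean was that of cytoplasm. On the authors' TPM the shares were larger, 1.8% to 2.38%, 3.05% to 4%, 4.26% to 4.76% and 2.52% to 3.88%, and cytoplasm was the lowest in hPSC and ectoderm only. On TPM chromatin was the highest in endoderm only. It was the lowest in mesoderm, where the highest value was that of the 1 nucleoplasm library. The short entries together were higher in cytoplasm than in nucleus in hPSC (644 to 1310 CPM against 277 to 580), in endoderm (944 to 1096 against 305 to 337) and in mesoderm (913 to 1274 against 123 to 176), with no overlap between the libraries. In ectoderm the same sum overlapped between cytoplasm (1374 to 2324 CPM) and nucleus (1557 to 2356), and it was lower in nucleoplasm (767 to 879) and on chromatin (482 to 528).

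The long entries together had another order. On chromatin they summed to 213 to 241 CPM in ectoderm, above the 139 to 153 of nucleoplasm, the 133 to 161 of cytoplasm and the 72.1 to 114 of nuclei. In hPSC the chromatin sum was 22.8 to 29.6 CPM against 9.96 to 14.6 in cytoplasm, without overlap, and it overlapped nucleoplasm (21.1 to 24.1). In mesoderm the chromatin range of 83 to 105 CPM overlapped the cytoplasm range of 35.9 to 88.7, and nuclei held 24.2 to 66.7. In endoderm the chromatin range of 7.85 to 21.8 CPM overlapped the other fractions. In bulk RNA, fewer cells of a type and less RNA per cell cannot be told apart, and since each cell type has its own list of entries, these sums are not compared between cell types.

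**Figure D1:**
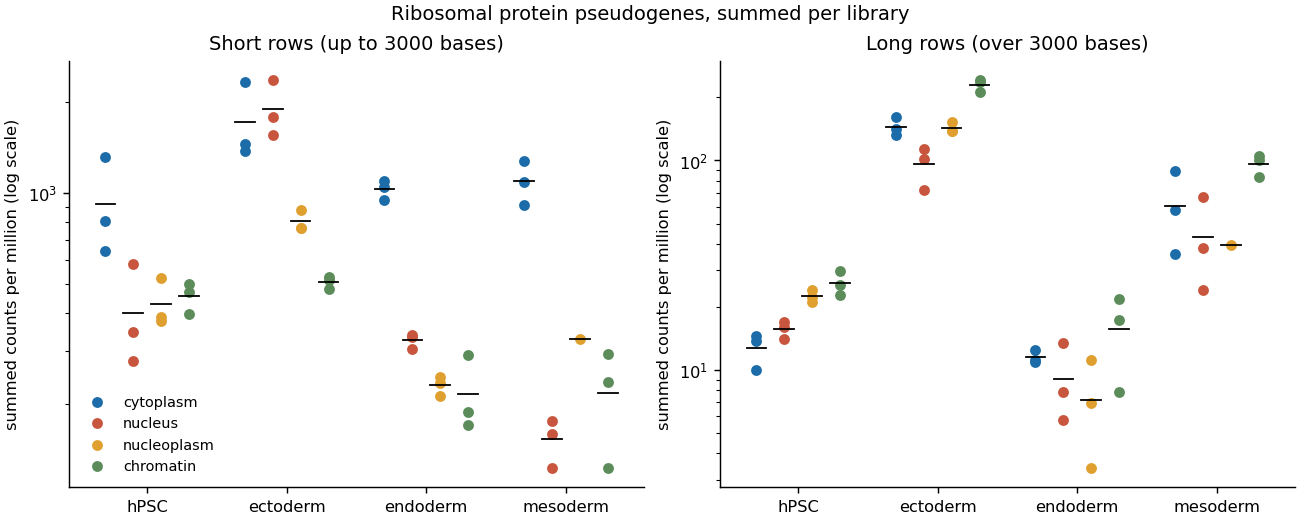
Summed CPM of the pseudogenes in each library, by cell type and fraction, for short entries (short rows in the picture) and long entries over 3000 bases, on a log scale; each point is 1 library and each bar the group's mean. Short entries sat higher in cytoplasm than in nucleus in hPSC, endoderm and mesoderm, while long entries in ectoderm were highest on chromatin (213 to 241 CPM).

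Among the 25 copies present in all tables, 12 are named for their mean CPM over the 4 cell types, which reflects read support and not the level per length. The means were 119 CPM for RPS28P7, 106 for RPSAP58, 69.2 for RPL23AP42 and 32.1 for RPL39P3. The other 8 (RPS3AP6, RPL41P5, RPLP0P9, RPL21P16, RPL36AP37, RPL23AP7, RPL6P27 and RPL10AP6) ran from 17 down to 7.09 CPM. All 12 were short entries.

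RPS28P7 is a copy of RPS28, a small-subunit protein near the messenger RNA exit site. In hPSC cytoplasm its 3 libraries held 626, 269 and 208 CPM, and in hPSC nuclei 90.5, 50.0 and 65.8. In ectoderm the cytoplasm held 207, 292 and 190 CPM and nuclei 208, 372 and 270, in endoderm 165, 125 and 184 against 58.2, 53.0 and 41.9, and in mesoderm 153, 158 and 325 against 16.5, 25.8 and 23.1. Cytoplasm stood above nuclei without overlap in hPSC, endoderm and mesoderm and overlapped them in ectoderm. On chromatin the copy was at 82.2 to 93.3 CPM in hPSC, 74.5 to 87.1 in ectoderm, 27.0 to 39.0 in endoderm and 13.5 to 40.9 in mesoderm.

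Its counts were a large share of the parent's. Relative to RPS28 in the same library, RPS28P7 held 28.6% to 70.2% of the parent's counts over the 46 libraries. The 3 lowest shares were in ectoderm cytoplasm replicate 3 (28.6%), mesoderm cytoplasm replicate 2 (29.2%) and hPSC nucleoplasm replicate 2 (29.8%). With 100% of the coding sequence shared, a read that falls inside it cannot be assigned to one or the other by sequence. How the authors' counting divided such reads is not given in the sources used here.

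RPL41 encodes the smallest ribosomal protein, and 2 copies of it were listed. RPL41P1, on chromosome 20 and away from any other gene, was listed only in ectoderm and endoderm. There it held 61.0% to 89.4% of the counts of RPL41, with 508, 457 and 744 CPM in ectoderm cytoplasm and 461, 348 and 486 in endoderm cytoplasm. RPL41P5, whose coding sequence is the same, was in all 4 tables. Its cytoplasm libraries held 77.3, 20.3 and 19.8 CPM in hPSC and 91.6, 9.62 and 93.0 in mesoderm, where RPL41P1 has no entry, against 22.6, 10.8 and 1.73 in ectoderm and 17.1, 10.1 and 17.3 in endoderm, where it has one. The part of the second entry in these levels was not tested.

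Most of the other close copies held smaller shares of the parent. RPL23AP42 held between 2.96% and 78.6% of RPL23A, with the highest value in hPSC nucleoplasm replicate 2 (212 CPM, against 63.4 and 40.8 in the other 2 libraries). RPSAP58 held 2.87% to 13.9% of RPSA, RPL39P3 2.90% to 35.5% of RPL39, and RPLP0P9 0.0941% to 1.34% of RPLP0, the stalk protein. Over all pseudogenes of the 4 tables with a parent in the same table, the median level was 1.84% of the parent's counts, and 2.95% of its TPM.

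In hPSC the share of the parent was higher in nuclei than in cytoplasm without overlap for 9 of the 12, higher in cytoplasm for 1 and overlapping for 2. RPS3AP6, for example, was at 0.454%, 0.740% and 0.654% of RPS3A in hPSC cytoplasm and 3.13%, 1.67% and 1.97% in hPSC nuclei. Its own CPM overlapped between these fractions (16.3, 18.0 and 14.6 against 32.9, 12.2 and 17.5), while RPS3A was higher in cytoplasm. In ectoderm the share was higher in nuclei for 5 of the 12 and overlapped for 7. In endoderm these counts were 2 higher in nuclei, 1 higher in cytoplasm and 9 overlapping, and in mesoderm 2 and 10, with none higher in cytoplasm. With 3 libraries against 3, an exact permutation test cannot give a two-sided p below 0.10, so these are descriptions.

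**Figure D2:**
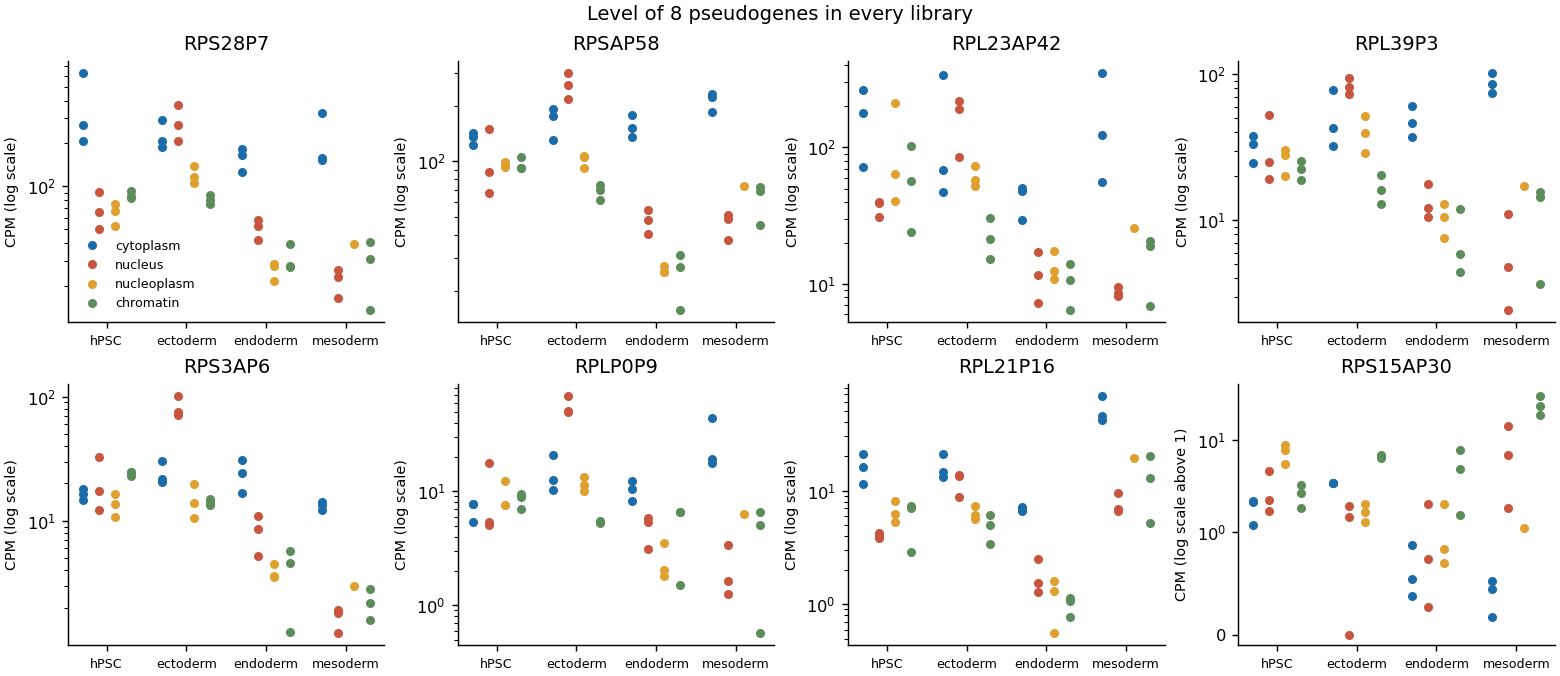
Level in CPM, on a log scale, of 8 pseudogenes in each library, by cell type and fraction; each point is 1 library, and the RPS15AP30 axis is linear below 1. RPS28P7 in hPSC sat at 208 to 626 CPM in cytoplasm and 50.0 to 90.5 in nuclei.

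Cytoplasm was compared with nucleus, which the column names code as Nei (read here as nucleus), within each cell type, over all genes of its table, with edgeR's quasi-likelihood test and Benjamini-Hochberg adjustment, and a gene was called at an adjusted p under 0.05. Of the 51 pseudogenes of the hPSC table, 32 passed the filter on low counts, a filter that a copy can pass through 1 group alone. Of these 13 were higher in cytoplasm, 1 was lower and 18 were not called, with a median log2 change of 0.51. With limma on the authors' TPM the same number of copies gave 8 higher and 6 lower, and the median turned to -0.09. Over all 13987 genes tested, 65.7% were called (35.6% higher and 30.1% lower) and the median was 0.11, so the share of copies called was below the background, a difference with no test of its own. The groups did not overlap for 17 of the 32 copies and for 71.7% of all genes. All 82 ribosomal protein genes were higher, with a median of 1.68. The pseudogenes' change was below that of their own parent by a median of 0.97 (log2 difference -0.97), and 5 of 32 copies stood above it.

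Among copies with a mean of at least 1 CPM, the largest rises in hPSC cytoplasm were in short entries. RPS28P7 rose by a log2 change of 2.38 (SE 0.35, adjusted p = 4.13e-05), beside 2.15 (SE 0.33) for RPS28. RPL23AP42 rose by 2.19 (SE 0.63, adjusted p = 0.00716), from 40.2, 31.0 and 38.9 CPM in nuclei to 265, 180 and 71.6 in cytoplasm, with no overlap. RPL7P9, which overlaps no other gene, rose by 2.02 (SE 0.30), RPL21P16 by 1.95 (SE 0.32) and RPL41P5 by 1.86 (SE 0.65). The call of RPL41P5 was lost with limma on TPM (log2 change 0.96, adjusted p = 0.348) and with edgeR on each transcript by itself (adjusted p = 0.0897). RPSAP58, RPL39P3, RPS3AP6 and RPLP0P9 were not called (log2 changes 0.35, -0.06, -0.40 and -0.45) although each parent rose by 1.39 to 2.35.

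RPS20P22, which lies in an intron of the growth factor receptor gene FGFR1, was the 1 copy called lower. It held 0.840, 2.34 and 1.39 CPM in hPSC cytoplasm and 4.08, 2.59 and 3.23 in nuclei. The 2 ranges did not overlap, and the log2 change was -1.11 (SE 0.34, adjusted p = 0.0106), where RPS20, its parent, rose by 1.89 and FGFR1 fell by 1.89.

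The median change was highest in mesoderm. Of 48 pseudogenes tested (62 listed), 24 were higher in cytoplasm, 10 lower and 14 not called, with a median log2 change of 1.81, where 63.4% of all 14394 genes were called (32.1% higher and 31.2% lower) at a median of 0.00. Between cytoplasm and nuclei the libraries did not overlap for 30 copies and for 75% of all genes. All 82 ribosomal protein genes were higher, with a median of 3.12. By kind of entry, 23 of 33 short entries were higher and 2 lower (median 2.88), and 1 of 15 long entries was higher and 8 lower (median -1.30). This is a description only: the line between them was drawn after the values were seen, and 4 of the 8 (RPS26P11, RPS12P5, RPS3AP28 and RPS12P16) held 1, 1, 2 and 4 counts in all in cytoplasm and so passed the filter through other fractions. Short entries differed from their parent by a median of -0.03, long entries by -4.39. Copies that overlap no other gene gave 11 higher and 0 lower of 13 (median 3.08). Copies in a protein-coding gene gave 4 higher and 8 lower of 22 on the same strand (median -1.22). On the opposite strand they gave 2 higher and 2 lower of 6 (median -0.43). For same-strand copies the medians were -0.23 in hPSC, 0.71 in ectoderm and 0.03 in endoderm.

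Among the short entries, RPL39P3, a copy of the tunnel protein gene RPL39, held 85.1, 74.0 and 102 CPM in mesoderm cytoplasm and 2.43, 11.0 and 4.82 in nuclei. There was no overlap, and the log2 change was 4.03 (SE 0.52, adjusted p = 5.09e-05), beside 3.99 (SE 0.41) for RPL39. RPL18AP3, in an intron of the thioredoxin reductase gene TXNRD1, rose by 4.12 (SE 0.46), and TXNRD1 was at 0.50 (adjusted p = 0.0716). RPL23AP42 rose by 4.47 (SE 0.63, adjusted p = 9.17e-05), with 56.1, 351 and 124 CPM in cytoplasm against 8.19, 9.47 and 8.54 in nuclei.

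Some rises were set against almost no nuclear counts. RPL22P1, in an intron of MECOM, held 4.56, 64.5 and 4.37 CPM in mesoderm cytoplasm and 0 counts in each of the 3 nuclear libraries. Its summed 1235 cytoplasm counts put it at least 78.1-fold higher than a floor of 3 counts in each nuclear library, and cytoplasm replicate 2 stood far above the others. RPS23P8 had 207 counts in cytoplasm and 1 in nuclei, a ratio of 138 with an exact 95% interval of 24.5 to 5480, which covers counting error only. It too was highest in replicate 2, with 9.39 CPM against 1.37 and 1.85.

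Among the long entries, RPS15AP30 in TCF7L2, the gene of a WNT pathway transcription factor, held 0.521, 0.175 and 0.444 CPM in mesoderm cytoplasm, 6.86, 1.81 and 14.1 in nuclei and 23.0, 18.6 and 29.9 on chromatin. Chromatin stood above nuclei and nuclei above cytoplasm, without overlap. The cytoplasm change was -4.23 (SE 0.66, adjusted p = 0.000206), where RPS15A rose by 3.47 and TCF7L2 fell by 1.17. RPS3AP28, opposite to TRIM24, had 2 counts in cytoplasm and 101 in nuclei, a CPM ratio of 75.7 (exact 95% interval 20.4 to 634), and held 13.0, 11.2 and 17.5 CPM on chromatin. RPL13AP12 (-1.30), RPL39P16 (-0.84) and the short entry RPS18P9 (-1.41) were also lower in cytoplasm, each beside a parent that rose by 2.82 to 3.99.

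In endoderm, 28 of 53 pseudogenes were tested, and 12 were higher in cytoplasm, 2 lower and 14 not called, with a median of 0.73. The background was 69.9% called (34.4% higher and 35.6% lower) with a median of 0.01. No overlap was seen for 20 copies and for 75.8% of all genes, and 76 of 82 ribosomal protein genes were higher (median 1.12). With library totals in place of TMM factors, edgeR's default scaling, the median of all genes moved to 0.73 and that of the copies to 1.50, with 19 higher and 1 lower. RPL7P9 held 4.19, 5.72 and 3.38 CPM in cytoplasm and 0.0671, 0.754 and 0.535 in nuclei, without overlap, and rose by 2.66 (SE 0.56, adjusted p = 0.000656). RPL22P1 held 13.5, 23.3 and 23.5 CPM against 1.61, 4.61 and 2.54 and rose by 2.13 (SE 0.31) beside 2.22 for RPL22. RPS20P22 fell by 2.18 (SE 0.35, adjusted p = 4.78e-05), again with a parent that rose (1.40) and a host gene that fell (FGFR1, -2.42).

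In ectoderm the calls went both ways. Of 61 pseudogenes tested (102 listed), 14 were higher in cytoplasm, 10 lower and 37 not called, with a median of 0.34, where 53.5% of 15655 genes were called (28.8% higher and 24.8% lower) at a median of 0.03. The groups did not overlap for 24 copies and for 57.9% of all genes. With library totals in place of TMM factors, the median of all genes moved to 0.38 and the pseudogenes split into 17 higher and 6 lower. Of the ribosomal protein genes 8 were higher and 9 lower, a balance that turned to 30 higher and 0 lower with library totals and to 19 and 1 with limma on TPM. Short entries gave 4 higher and 9 lower of 34 (median -0.40), and long entries 10 higher and 1 lower of 27 (median 0.81).

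The largest ectoderm falls were in short entries. RPLP0P9 held 12.5, 10.2 and 20.9 CPM in cytoplasm and 50.8, 68.4 and 49.9 in nuclei, without overlap, and fell by 2.30 (SE 0.25, adjusted p = 8.16e-06), where RPLP0 fell by 0.69. RPS3AP6 held 30.3, 21.7 and 20.7 CPM against 75.6, 101 and 71.0 and fell by 2.12 (SE 0.25, adjusted p = 1.36e-05), where RPS3A fell by 0.48. RPL10P9 fell by 1.99, RPL10AP6 by 1.52 and RPL13P5, a diverged copy at 80.6% identity, by 1.02, and none of their 3 parents was called.

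The ectoderm rises were mostly in long entries. RPL7AP43 held 9.18, 5.16 and 6.71 CPM in cytoplasm and 1.68, 0.563 and 2.09 in nuclei, without overlap, and rose by 2.04 (SE 0.33, adjusted p = 0.000216), where RPL7A was at -0.46 (adjusted p = 0.0612). RPS15AP30 rose by 1.54 (SE 0.60, adjusted p = 0.0442, lost with a replicate block at 0.0607), RPL23AP53 by 1.00 (SE 0.29) and the short entry RPL7P9 by 1.36 (SE 0.26). With edgeR on each transcript by itself these calls were lost (adjusted p = 0.419 for RPS15AP30, 0.876 for RPL23AP53 and 0.0504 for RPL7P9). The nuclear RNAs MALAT1 and NEAT1 were higher in this cytoplasm too (3.09 and 2.59), and the part of whatever moved them in these rises was not tested.

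**Figure D3:**
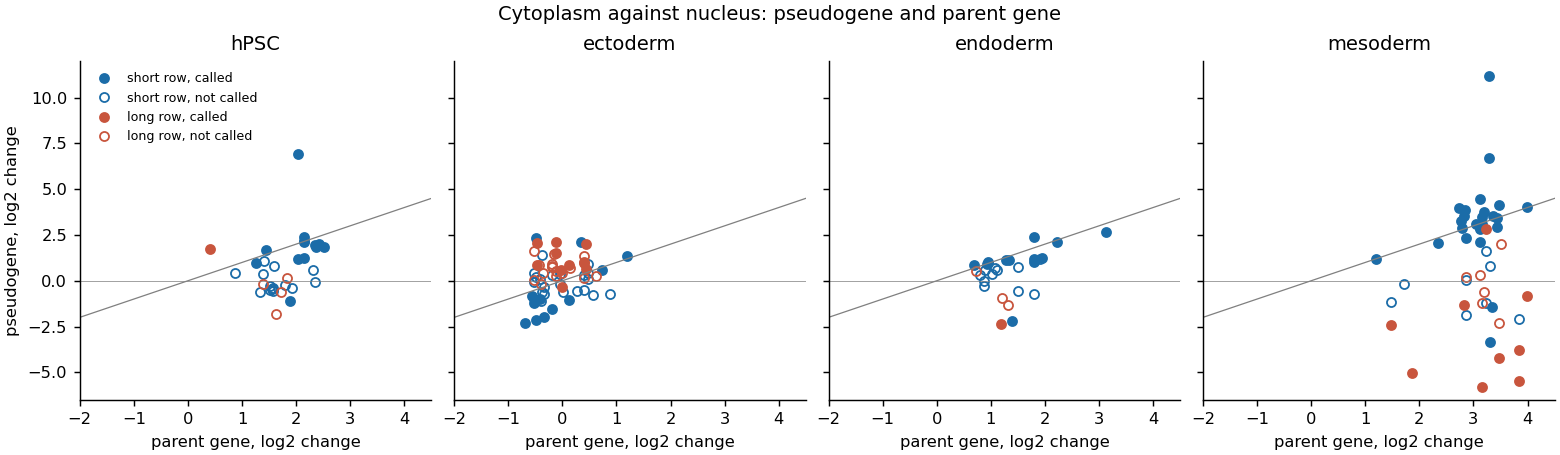
Log2 change between cytoplasm and nucleus of each pseudogene tested (vertical axis) against that of its parent gene (horizontal axis), by cell type, for short and long entries; each point is 1 pseudogene, filled where called, and the line marks equal change. In mesoderm the short entries lie near the parent's change (median difference -0.03) and the long entries far below it (-4.39).

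Chromatin was compared with nucleoplasm in the 3 cell types with replicates of both. The nuclear RNA MALAT1 was lower on chromatin in hPSC, ectoderm and endoderm (log2 changes -2.82, -1.65 and -1.55), and NEAT1 was lower in hPSC (-2.90). NEAT1 was not called in ectoderm (-0.45). Other nuclear RNAs were higher on chromatin, MEG3 (0.75) and SNHG14 (0.50) in ectoderm and KCNQ1OT1 (1.40) in endoderm, or were not called. The part of these features in the results below was not tested. In hPSC, 32 copies gave 4 higher on chromatin, 3 lower and 25 not called, with a median of -0.30, where 30.7% of all genes were called (17.2% higher and 13.6% lower) at a median of -0.01. The groups did not overlap for 11 copies and for 54.5% of all genes. The ribosomal protein genes gave 3 higher and 4 lower (median -0.25). With limma on the authors' TPM both directions turned: the copies gave 11 higher and 1 lower (median 0.64) and the ribosomal protein genes 31 and 0 (median 0.39). RPL18AP3 held 26.6, 29.5 and 25.0 CPM on chromatin and 7.25, 9.91 and 11.1 in nucleoplasm, without overlap, and rose by 1.28 (SE 0.32, adjusted p = 0.00872), while TXNRD1 fell by 0.44. RPL13P5, which shares exons with LRRC23, rose by 1.29 (SE 0.33), RPL6P27 by 0.97 (SE 0.23) and RPSAP52, opposite to exons of HMGA2, by 0.90 (SE 0.21), with HMGA2 itself at 0.96.

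RPS15AP30 and RPL7P9 were lower on hPSC chromatin. RPS15AP30 held 1.84, 2.62 and 3.27 CPM on chromatin and 7.65, 8.70 and 5.41 in nucleoplasm, a log2 change of -1.74 (SE 0.36, adjusted p = 0.00334). RPL7P9 was at -1.65 (SE 0.30, adjusted p = 0.00161). Neither pair of groups overlapped. The direction for RPS15AP30 was the opposite of that in ectoderm, below, and the difference between the 2 cell types was not tested.

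In ectoderm, 61 copies gave 7 higher on chromatin, 11 lower and 43 not called (median -0.03), where 43.3% of all genes were called (21.6% higher and 21.8% lower) at a median of -0.02. The groups did not overlap for 32 copies and for 59.9% of all genes. Without chromatin replicate 1, 10 copies were called, and without nucleoplasm replicate 2, 9. The ribosomal protein genes gave 0 higher and 73 lower (median -0.77). Library totals in place of TMM factors moved the median of all genes to 0.17 and the copies to 7 higher and 7 lower. Short entries gave 1 higher and 10 lower of 34 (median -0.62) and long entries 6 higher and 1 lower of 27 (median 0.59). In all 27 long entries the copy's change was above its parent's, by a median of 1.45.

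RPS15AP30 held 6.59, 6.81 and 6.41 CPM on ectoderm chromatin and 2.02, 1.65 and 1.29 in nucleoplasm, without overlap. It rose by 1.79 (SE 0.55, adjusted p = 0.0186), where RPS15A fell by 0.77 and TCF7L2 rose by 0.53. RPS20P22 held 27.1, 21.2 and 31.5 CPM against 8.87, 7.32 and 8.38 and rose by 1.48 (SE 0.22, adjusted p = 0.000194), with FGFR1 at 0.03 (adjusted p = 0.819). RPS26P45 rose by 1.57, RPL32P13 by 1.48 and RPL39P34 by 0.78 (SE 0.46, 0.40 and 0.28), each a long entry beside a parent that fell. The call of RPL39P34 was lost with no count filter (adjusted p = 0.0604).

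The copies with the largest falls on ectoderm chromatin were short entries whose parents were also lower. RPL39P3 held 13.0, 20.5 and 16.0 CPM on chromatin and 39.5, 52.0 and 28.9 in nucleoplasm, without overlap, and fell by 1.47 (SE 0.30, adjusted p = 0.00174), where RPL39 fell by 1.21. RPL36AP37, in an intron of PLEKHA7, fell by 1.61 (SE 0.47), RPL10AP6 by 1.41 (SE 0.35), RPL23AP42 by 1.64 (SE 0.63, adjusted p = 0.0497) and RPS27AP16 by 1.75 (SE 0.57). The call of RPL23AP42 was lost with DESeq2 (adjusted p = 0.052) and with library totals (0.0816), and that of RPL36AP37 with limma on TPM (adjusted p = 0.103).

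In endoderm, 28 copies gave 3 higher on chromatin, 6 lower and 19 not called (median -0.39), where 53.7% of all genes were called (23% higher and 30.7% lower) at a median of -0.12. No overlap was seen for 7 copies and for 71.3% of all genes. Without chromatin replicate 3, 5 copies were called. The ribosomal protein genes gave 0 higher and 66 lower (median -0.86). With library totals the median of all genes moved to 0.50, the copies to 4 higher and 1 lower with a median of 0.22, and the ribosomal protein genes to 6 higher and 25 lower, so the direction of the family as a whole depended on the scaling. RPL41P5 fell by 2.51 (SE 0.45, adjusted p = 0.000232), with 1.38, 0.506 and 0.511 CPM on chromatin and 2.72, 2.29 and 4.65 in nucleoplasm. RPL35AP32, in an intron of MAP2K1 on the opposite strand, rose by 2.29 (SE 0.86, adjusted p = 0.0356), with 4.63, 1.39 and 6.98 CPM against 0.209, 1.11 and 0.458. RPS20P22 rose by 1.02 (SE 0.31) and RPL13P5 by 0.61 (SE 0.21). None of these 4 had overlapping groups. With edgeR on each transcript by itself the calls of RPL35AP32 (adjusted p = 0.223), RPS20P22 (0.141) and RPL13P5 (0.905) were lost.

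In mesoderm, with a single nucleoplasm library, chromatin was not tested against nucleoplasm. That library's column carries the number 3 where its label says 1, and it was taken as the 1 mesoderm nucleoplasm sample. RPS15AP30 held 1.12 CPM there and 18.6 to 29.9 on chromatin, RPS3AP28 0.250 and 11.2 to 17.5, and RPL39P3 17.2 and 3.65 to 15.6.

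**Figure D4:**
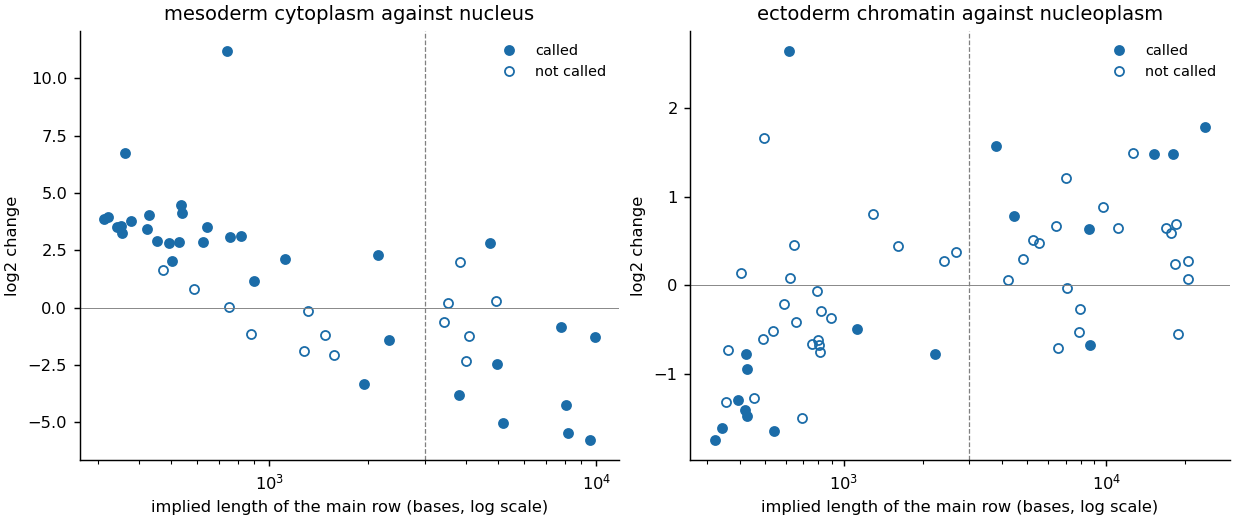
Log2 change of each pseudogene against the transcript length of its entry in bases (log scale), implied by the ratio of count to TPM, for mesoderm cytoplasm against nucleus and ectoderm chromatin against nucleoplasm; each point is 1 pseudogene, filled where called, and the dashed line marks 3000 bases. In mesoderm cytoplasm against nucleus the entries under the line had a median of 2.88 and those over it -1.30.

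Cell types were compared in cytoplasm over the 10673 genes tested of those present in all 4 tables, among them 21 of the 25 shared pseudogenes. The 3 comparisons share the hPSC libraries, and each cell type was counted on its own assembly, so cell type and assembly cannot be told apart. Against hPSC, ectoderm gave 9 copies higher, 3 lower and 9 not called, with a median of 0.58. The background there was 76% called (38% higher and 37.9% lower), and the groups did not overlap for 12 copies and 74.3% of all genes. Endoderm gave 1 copy higher, 7 lower and 13 not called with a median of -0.43, against 58.1% of all genes called (29.5% higher and 28.6% lower) and no overlap for 10 copies and 61% of all genes. Mesoderm gave 12 copies higher, 4 lower and 5 not called with a median of 0.70, against 68.1% called (34.6% higher and 33.4% lower) and no overlap for 16 copies and 69.1% of all genes. The medians of all genes were 0.01, -0.00 and 0.00. The ribosomal protein genes gave 3 higher and 12 lower in ectoderm, 0 and 77 in endoderm, and 1 and 10 in mesoderm, with medians of -0.17, -0.81 and -0.20. With limma on the authors' TPM these genes gave 15 and 14, 5 and 30, and 9 and 9, with medians of 0.07, -0.40 and 0.00.

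In mesoderm the copies changed without their parents: of the 16 copies called, 0 had a parent called. RPL21P75 held 5.34, 4.55 and 6.14 CPM in mesoderm cytoplasm and 0.720, 0 and 0.265 in hPSC cytoplasm, without overlap, and rose by 4.23 (SE 0.73, adjusted p = 0.000114), where RPL21 was at -0.03. RPL21P16, another copy of RPL21, held 45.1, 67.7 and 41.9 CPM against 21.0, 16.2 and 11.5 and rose by 1.64 (SE 0.23). RPLP0P9 rose by 1.88 (SE 0.34), RPL10AP6 by 1.95 (SE 0.35), RPS23P8 by 2.28 (SE 0.88) and RPL32P24 by 2.21 (SE 0.74), the last with 2 hPSC libraries at 0 and a call lost with DESeq2 (adjusted p = 0.092).

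Of the copies called, 4 were lower in mesoderm. RPL36AP37 held 3.06, 4.67 and 6.07 CPM in mesoderm cytoplasm and 35.5, 21.6 and 21.2 in hPSC, without overlap, and fell by 2.54 (SE 0.49, adjusted p = 0.000313), where RPL36A was at -0.14 and PLEKHA7 rose by 0.90. RPS15AP30 fell by 2.40, RPS20P22 by 1.60 and RPL18AP3 by 1.44. All 4 lie in an intron of a protein-coding gene, as do RPL39P3 and RPL10AP6, which rose (1.41 and 1.95).

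In endoderm RPL36AP37 was lower still, at 1.80, 0.487 and 2.57 CPM, and fell by 4.16 (SE 0.55, adjusted p = 1.62e-05), where RPL36A fell by 1.27. RPL13P12, which overlaps no other gene, held 0.654, 0.912 and 0.815 CPM in endoderm cytoplasm, 2.03, 2.00 and 2.27 in ectoderm, 12.2, 10.1 and 12.3 in hPSC and 38.9, 22.8 and 32.6 in mesoderm. The 4 ranges did not overlap, and its fall against hPSC was 4.02 in endoderm (SE 0.24, adjusted p = 2.71e-09) and 2.53 in ectoderm (SE 0.21, adjusted p = 3.34e-08), where RPL13 was at -0.62 and 0.13. RPL18AP3 fell by 2.34, RPL23AP42 by 2.19 and RPS15AP30 by 1.84 in endoderm. The 1 copy called higher there, RPL23AP7 (0.45, SE 0.18, adjusted p = 0.0438), was not called with DESeq2 (adjusted p = 0.0562) or a replicate block (0.0677).

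In ectoderm the rises included RPS20P22, with 9.95, 11.3 and 9.04 CPM in cytoplasm against 0.840, 2.34 and 1.39 in hPSC, a log2 change of 2.57 (SE 0.30, adjusted p = 1.51e-06). In ectoderm its counts came from 2 transcripts, 1936 counts from one of an implied 17930 bases and 186 from one of 1338, and in hPSC from 1 transcript of 1330 bases, so the 2 assemblies counted different stretches under 1 name. RPL10AP6 rose by 2.12 (SE 0.35) with its host PTPRG at 1.25, RPS23P8 by 2.36 (SE 0.87), RPLP0P9 by 0.95 (SE 0.35) and RPS15AP30 by 0.75 (SE 0.31). With limma on TPM the call of RPS20P22 was lost (log2 change 0.08, adjusted p = 0.721), and the direction of RPL10AP6 turned. RPL18AP3 fell by 1.69 (SE 0.21).

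Copies listed in a single table have no counterpart elsewhere. The copy with the highest mean CPM, a value that also reflects length, is given for each table. In ectoderm only, RPS2P5, opposite to TAOK3 and a copy of the uS5 protein gene RPS2, averaged 192 CPM over its 12 libraries. It held 191, 200 and 603 CPM in cytoplasm, 185, 364 and 258 in nuclei, 90.8 to 102 in nucleoplasm and 53.6 to 90.4 on chromatin, between 3.98% and 14.3% of RPS2. In mesoderm only, RPL13AP25 held 14.9, 48.5 and 14.1 CPM in cytoplasm and 1.18 to 3.62 in nuclei. In endoderm only, RPL13AP5 held 8.99, 11.9 and 9.21 CPM in cytoplasm and 3.01 to 4.70 in nuclei. In hPSC only, RPS6P12 averaged 3.00 CPM, with 2.40 to 4.84 in cytoplasm and 2.66 to 3.11 in nuclei.

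Single libraries stood apart for several copies at once. Mesoderm cytoplasm replicate 2 was the highest of its group for RPL22P1 (64.5 CPM), RPL23AP42 (351), RPL13AP25 (48.5), RPLP0P9 (43.8) and RPS23P8 (9.39), and the lowest for RPL41P5 (9.62). Ectoderm cytoplasm replicate 3 was the highest for RPL23AP42 (341), RPS2P5 (603) and RPL22P1 (39.6) and the lowest for RPL41P5 (1.73), and hPSC nucleoplasm replicate 2 the highest for RPL23AP42 (212), RPL10AP6 (9.69) and RPS23P8 (4.56) and the lowest for RPL41P5 (0.784). Without mesoderm cytoplasm replicate 2 the fitted change of RPL22P1 moved from 11.20 to 8.63, which are fitted values against counts of 0 and not sizes.

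Last, the difference between cytoplasm and nucleus was itself compared with that of hPSC, by an interaction term, for the 21 shared copies tested. The hPSC libraries are again shared, and assembly changes with cell type. In ectoderm the difference was higher for 2 copies, lower for 8 and not called for 11 (median -1.15), where 51.9% of all genes were called (27.4% higher and 24.6% lower) at a median of 0.10. The ribosomal protein genes gave 0 higher and 78 lower (median -1.65). RPS28P7 was at -2.83 (SE 0.54, adjusted p = 0.000206) beside -2.35 for RPS28. RPS15AP30 at 2.33 (SE 0.98, adjusted p = 0.05) was called just inside the threshold and was lost with DESeq2 (adjusted p = 0.0504), a replicate block (0.0546) and library totals (0.0731).

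In endoderm the difference was higher for 1 copy and lower for 1, with 19 not called (median 0.38), where 38% of all genes were called (19.7% higher and 18.3% lower). Library totals moved the median of all genes from -0.03 to 0.48 and gave 5 copies higher and 0 lower. No copy was called without endoderm cytoplasm replicate 1 or replicate 2. The count was 1 without endoderm nucleus replicate 2, hPSC cytoplasm replicate 3 or hPSC nucleus replicate 1, and 4 without hPSC nucleus replicate 2. RPS3AP6 was at 1.25 (SE 0.44, adjusted p = 0.0292) and RPS28P7 at -1.40 (SE 0.53, adjusted p = 0.0419, lost with library totals at 0.19, a replicate block at 0.0632 and limma on TPM at 0.674). In mesoderm it was higher for 10 copies, lower for 1 and not called for 10 (median 2.04), where 25.6% of all genes were called (18.7% higher and 6.88% lower) at a median of 0.16 and 65 of 82 ribosomal protein genes were higher (median 1.47). RPL39P3 was at 4.18 (SE 0.54, adjusted p = 1.79e-05) beside 1.72 for RPL39, and RPLP0P9 at 4.29 (SE 0.67) beside 1.71 for RPLP0. Both copies overlapped between cytoplasm and nucleus in hPSC and were separated in mesoderm. RPS15AP30 was at -3.53 (SE 1.05, adjusted p = 0.0175), the 1 copy called lower, beside 1.82 for RPS15A.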

How the data were processed

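The authors deposited whole-number counts and TPM (length-corrected shares of a library) per assembled transcript, 1 pair of tables for each cell type. The submitters' processing notes name STAR, RSEM and hg38, with no version or role. How reads that fit several copies were divided is not given in the sources used here. Counts were summed per Ensembl gene ID, leaving out the 2.64% to 4.07% of counts that name no gene, and 2 per-sample columns that matched no sample were not used. Columns coded Nei were read as nucleus, the 1 fraction in the labels that no other code matched.

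Each comparison was fitted over all genes of a table with edgeR 4.0.16 (R 4.3.3), using TMM factors, the filterByExpr filter (minimum count 10) and the two-sided quasi-likelihood F test with Benjamini-Hochberg adjustment. Fits of fractions held all libraries of a cell type, and fits between cell types held genes present in all 4 tables. The script was tested on simulated data. All 13 comparisons are reported. Alternatives were DESeq2 1.42.0, limma 3.58.1 on log2(TPM + 1), library totals, no count filter, each transcript by itself, a replicate block, a combined assembly for ectoderm, and leaving out each library. Replicate numbers were not used as pairs in the main fits, and in no comparison did all same-numbered pairs correlate above 0.1. Each ectoderm chromatin library still correlated best with the nucleoplasm library of its own number (0.0384, 0.0999 and 0.0903). Cytoplasm replicates 1 and 2 likewise matched the nucleus library of their number best in hPSC, ectoderm (0.331 and 0.177) and mesoderm. Replicate 3 did not, and in endoderm none did. Whether same-numbered libraries share a culture is therefore not settled. Of 45 replicate pairs 0 were identical.

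Members and lists were chosen with earlier results of these data known. Named copies are the 12 with the highest mean CPM among those in all tables, up to 5 rises and 5 falls per comparison (called, mean of at least 1 CPM, no overlap), and the highest in each single table. Positions and sequences come from GENCODE 29. A count of 0 allows up to 3 counts. The kit does not mark strand, so reads of opposite genes cannot be told apart. The values of some parent and host genes, and of 1 named copy, are not reported here.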

Additional observations from a re-analysis of the deposited data

Results flagged for a closer look

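In 15 cases the cytoplasm to nucleus difference of a named copy differed from that in hPSC by the test of the interaction term in edgeR at an adjusted p under 0.05. Some of these calls were lost elsewhere. In ectoderm RPS15AP30 was lost with DESeq2 (adjusted p = 0.0504), a replicate block (0.0546) and library totals (0.0731), and RPL10AP6 (0.191), RPL36AP37 (0.177) and RPLP0P9 (0.132) with limma on TPM. In endoderm RPS28P7 was lost with library totals (0.19), a replicate block (0.0632) and limma on TPM (0.674), and both calls were lost without endoderm cytoplasm replicate 1 or replicate 2. In mesoderm RPL32P24 was lost with DESeq2 (0.0889) and library totals (0.0705). The RPS20P22 entry was long in ectoderm and short in hPSC, and the RPS15AP30 entry was longer in ectoderm than in hPSC. For these copies the ectoderm values therefore compare different stretches. Each value is the log2 difference between the 2 differences. In ectoderm it was 2.33 for RPS15AP30 and 1.85 for RPS20P22, and -2.83 for RPS28P7, -2.49 for RPL23AP42, -2.40 for RPL36AP37, -2.15 for RPL10AP6 and -1.69 for RPLP0P9. In endoderm it was 1.25 for RPS3AP6 and -1.40 for RPS28P7. In mesoderm it was 7.07 for RPS23P8 (1 nuclear count in mesoderm, so the size is not a measure of the change), 4.62 for RPL18AP3, 4.29 for RPLP0P9, 4.18 for RPL39P3, 3.89 for RPL32P24 and -3.53 for RPS15AP30.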

How the results depend on the processing

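The number of copies called moved by over 1.5 times in these cases. Testing each transcript by itself gave 9 for ectoderm cytoplasm (24 by gene), 2 for hPSC chromatin (7), 7 for ectoderm chromatin (18) and 5 for endoderm chromatin (9). limma on TPM gave 12 for ectoderm cytoplasm, 12 for hPSC chromatin, 13 for endoderm against hPSC in cytoplasm (8) and 6 for the endoderm difference (2), and in hPSC cytoplasm it gave 8 higher and 6 lower in place of 13 and 1. Its other splits were 5 higher and 7 lower for ectoderm cytoplasm, 11 and 1 for hPSC chromatin, 11 and 5 for ectoderm chromatin and 7 and 6 for endoderm against hPSC. The copies' median turned to -0.09 for ectoderm cytoplasm, 0.19 for ectoderm chromatin and 0.07 for endoderm chromatin. It turned the direction of RPL6P27 in mesoderm cytoplasm (-0.02), RPL23AP7 on hPSC (0.46) and ectoderm (0.16) chromatin, and RPL10AP6 in ectoderm against hPSC (-0.49). Library totals gave 5 for endoderm chromatin and 5 for the endoderm difference, and the replicate block gave 1 for the latter. Leaving out 1 library gave 9 to 14 for ectoderm chromatin, 5 to 8 for endoderm chromatin and 0 to 4 for the endoderm difference; it fell to 0 without endoderm cytoplasm replicate 1 or replicate 2. The other ranges were 12 to 15, 16 to 32, 12 to 20 and 32 to 35 for cytoplasm in hPSC, ectoderm, endoderm and mesoderm. The median level relative to the parent was 2.95% by TPM against 1.84% by counts. The causes were not tested. Calls of named copies kept their direction and side of the threshold for 201 of 211 values with DESeq2, which gave no adjusted p for RPL22P1 in mesoderm, and for 204 of 212 with the replicate block and 208 of 212 with no count filter. The counts were lower with library totals (190 of 212), leaving out 1 library (1337 of 1524), limma on TPM (157 of 195, with 4 turned) and each transcript by itself (91 of 120). Drawing the line at 2000 bases, chosen after seeing the data, gave mesoderm long entries 2 higher and 9 lower of 17. Low copies are limited by depth: at 0 counts, up to 3 remain possible.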
